A study of Mus musculus with 23 samples.

Results

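The internal parts of mouse endogenous retroviruses of the ERVK family were followed in spinal cord RNA of PS19 mice and of controls. The members were the table rows assigned to the ERVK family whose name ends in -int, without the intracisternal A particles (names starting with IAP), without the ETn elements and without RLTR45-int. The rule uses names only and no measured value. It gave 31 of the 1135 repeat subfamilies in the table, out of 45 internal parts of the ERVK family in all. By name they were 8 ERVB, 4 MMERVK, 3 MYSERV, 5 RLTR and 5 RMER subfamilies. The other 6 were MurERV4-int, MurERV4_19-int, MERVK26-int, SRV_MM-int, MMTV-int and RNERVK23-int.

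An endogenous retrovirus is a retroviral genome that entered the germ line and is inherited with the chromosomes. An intact copy has a long terminal repeat (LTR) at each end, which carries the promoter and the polyadenylation signal. Between them lies the internal part, which holds the retroviral genes gag, pro, pol and in some groups env. ERVK elements are related to the betaretroviruses, and MMTV-int belongs to mouse mammary tumour virus, a betaretrovirus with infectious and inherited forms. Many copies have recombined down to a lone LTR, so reads on an internal part come from copies that still hold some internal sequence, intact or not. In mouse cells such copies are silenced by histone H3 lysine 9 methylation, set by SETDB1 with TRIM28 and KRAB zinc finger proteins, and by DNA methylation. MMERVK10C is known for its release from silencing in mouse embryonic stem cells that lack SETDB1.

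RNA came from lysates of whole spinal cord, was selected for poly(A) tails and was sequenced as stranded paired reads of 150 bases. PS19 mice are a tauopathy model with a mutant human tau transgene driven by the mouse prion promoter. The PS19 animals were heterozygous offspring of founders from the Jackson Laboratory, and the controls were their wild-type littermates. There were 7 PS19 and 6 control samples at 9 months, and 5 PS19 and 5 control samples at 4 months. No treatment, sex, batch or strain is given in the labels, and no label pairs the animals. The labels give no replicate number either, so the samples of each group are numbered here in the order of the record, as names only. At 9 months the sample numbers in the titles put 5 PS19 samples (replicates 1 to 5) before every control, and only 2 (replicates 6 and 7) among or after the controls. Genotype and sample number thus largely coincide at 9 months, and what those numbers stand for is not given. P-values set the difference between groups against the spread between the samples of a group. They cannot separate genotype from anything that follows the sample numbers. The table rows were repeats, so neither the transgene nor marker genes of spinal cord cells were checked here. In a lysate of a whole tissue, fewer cells of a type and less RNA per cell cannot be told apart.

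Values are reads per subfamily scaled by the authors with 1 size factor per sample, called normalized reads here. They are per subfamily and not per length or copy, so levels were compared between samples and not between subfamilies. The 9-month libraries held 338090 to 590194 repeat reads and the 4-month libraries 529522 to 2168280. At 4 months, replicates 1 to 3 of both genotypes had 1494940 to 2459740 normalized repeat reads, against 471178 to 779835 in replicates 4 and 5. These 2 sets were defined after their totals were known, and each held animals of both genotypes. Of the members, 29 of 31 had a mean of at least 10 normalized reads over all samples and were tested. ERVB4_3-I_MM-int and ERVB2_1-I_MM-int did not reach that mean. ERVB4_3-I_MM-int had 0 to 6 reads per sample at 9 months and 2 to 21 at 4 months. ERVB2_1-I_MM-int had 0 to 5 reads per sample at 9 months and 1 to 18 at 4 months. The filter is a mean over all samples, so a member could pass through its level at 4 months alone.

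The summed signal of the 31 members overlapped widely between PS19 and control spinal cord at both ages. It averaged 4356 ± 679 normalized reads in PS19 samples at 9 months (SD, n = 7), against 3804 ± 612 in control samples at 9 months (SD, n = 6). The samples ran from 3355 to 5305 in PS19 and from 3166 to 4967 in controls. At 4 months the sum averaged 13921 ± 5030.1 in PS19 samples and 14938 ± 7073 in control samples (SD, n = 5 each). Every 9-month sample lay below every 4-month sample. As a share of all repeat signal the ages stood much closer. The share was 0.971% ± 0.082 in PS19 and 0.937% ± 0.075 in controls at 9 months, and 1.20% ± 0.20 in PS19 and 1.14% ± 0.23 in controls at 4 months. At 4 months the share was 0.971 to 1.07% in replicates 1 to 3, against 1.20 to 1.52% in replicates 4 and 5. No test was made on these sums.

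**Figure D1:**
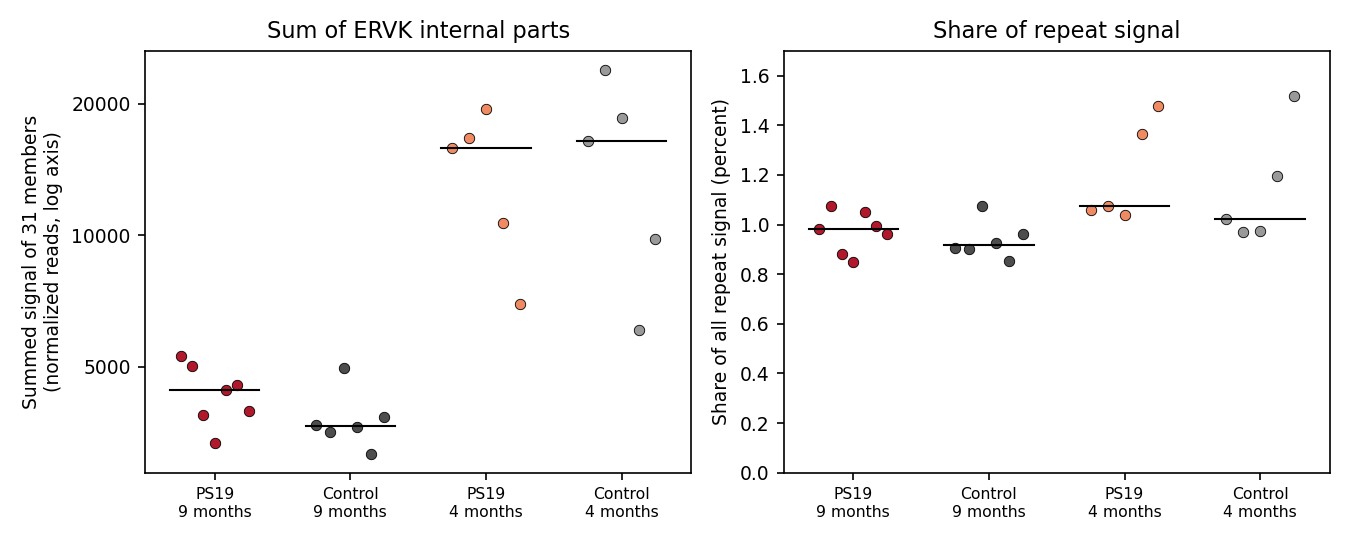
Summed signal of the 31 ERVK internal parts in each sample, as normalized reads on a log axis (left) and as percent of all repeat signal (right), with each point 1 sample and each line the median of its group. The sums of all 9-month samples lie below those of all 4-month samples, while the shares of the 4 groups overlap.

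At 9 months, 2 of the 29 tested members rose in PS19 spinal cord and none fell. RLTR19-int rose 1.36-fold and RMER3D-int rose 1.90-fold. Both are internal parts of ERVK proviruses whose LTRs carry the same stem in their name. The background of this comparison was 3.04% of all 920 tested subfamilies called higher and 0.326% called lower. That background corresponds to about 1 of 29 rows called higher, so the count of 2 is not by itself a result about the members. Beside the 2 called, 5 members had an unadjusted p under 0.05 in limma. That made 7 of 29 members, beside 164 of all 920 tested subfamilies.

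RLTR19-int had 508 normalized reads in the lowest PS19 sample at 9 months, 611 at the median and 724 in the highest. In control samples at 9 months it had 403 in the lowest, 457 at the median and 516 in the highest. Of the 7 PS19 samples, 6 lay above every control, and the remaining one, replicate 4, lay just below the highest control. PS19 over control gave a log2 fold change of 0.44 with a standard error of 0.11 (adjusted p = 0.0221, limma with Benjamini-Hochberg adjustment over all tested subfamilies). These values rest on 367 to 855 reads per sample.

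RMER3D-int had 38.4 normalized reads in the lowest PS19 sample at 9 months, 72.0 at the median and 104 in the highest. In control samples at 9 months it had 26.1 in the lowest, 33.6 at the median and 51.4 in the highest. Again 6 of 7 PS19 samples lay above every control, and PS19 replicate 7 lay among them. The log2 fold change was 0.93 with a standard error of 0.23 (adjusted p = 0.0287, limma). The values rest on 26 to 114 reads per sample.

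When PS19 was represented by replicates 6 and 7, the samples whose numbers run with those of the controls, the log2 fold change was 0.36 for RLTR19-int and 0.66 for RMER3D-int. Neither was called there, nor was any other member, beside 0.652% of all tested subfamilies in limma. An unadjusted p under 0.05 was found for 2 members, beside 74 of all 920 tested subfamilies. This fit held only 2 PS19 samples, so a call could be lost in it through the smaller group alone.

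The calls of both members depended on the samples and the scaling. After scaling within the repeats alone by TMM (trimmed mean of M values), RMER3D-int kept its call, with a log2 fold change of 0.77 and an adjusted p of 0.0343. RLTR19-int lost its call under TMM, with a log2 fold change of 0.28 and an adjusted p of 0.0524. Under TMM 1.85% of all tested subfamilies were called, in either direction. In the fit of all 23 samples, which shares the wide spread of the 4-month samples, none of the 29 members was called. There 2 other members, ERVB4_1-I_MM-int and RNERVK23-int, had an unadjusted p under 0.05, beside 28 of all 920 tested subfamilies. The unadjusted p was 0.110 for RLTR19-int and 0.0625 for RMER3D-int (limma). In that fit 0.109% of all tested subfamilies were called, and the adjusted p was 0.9997 for RLTR19-int and for RMER3D-int. With each sample of the 9-month groups left out in turn, RLTR19-int kept its call in 6 of 13 fits, and RMER3D-int in 5 of 13. In these fits the log2 fold change stayed between 0.41 and 0.49 for RLTR19-int and between 0.83 and 1.07 for RMER3D-int. Calls over the whole table ran from 7 to 78 of 920 subfamilies in them.

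**Figure D2:**
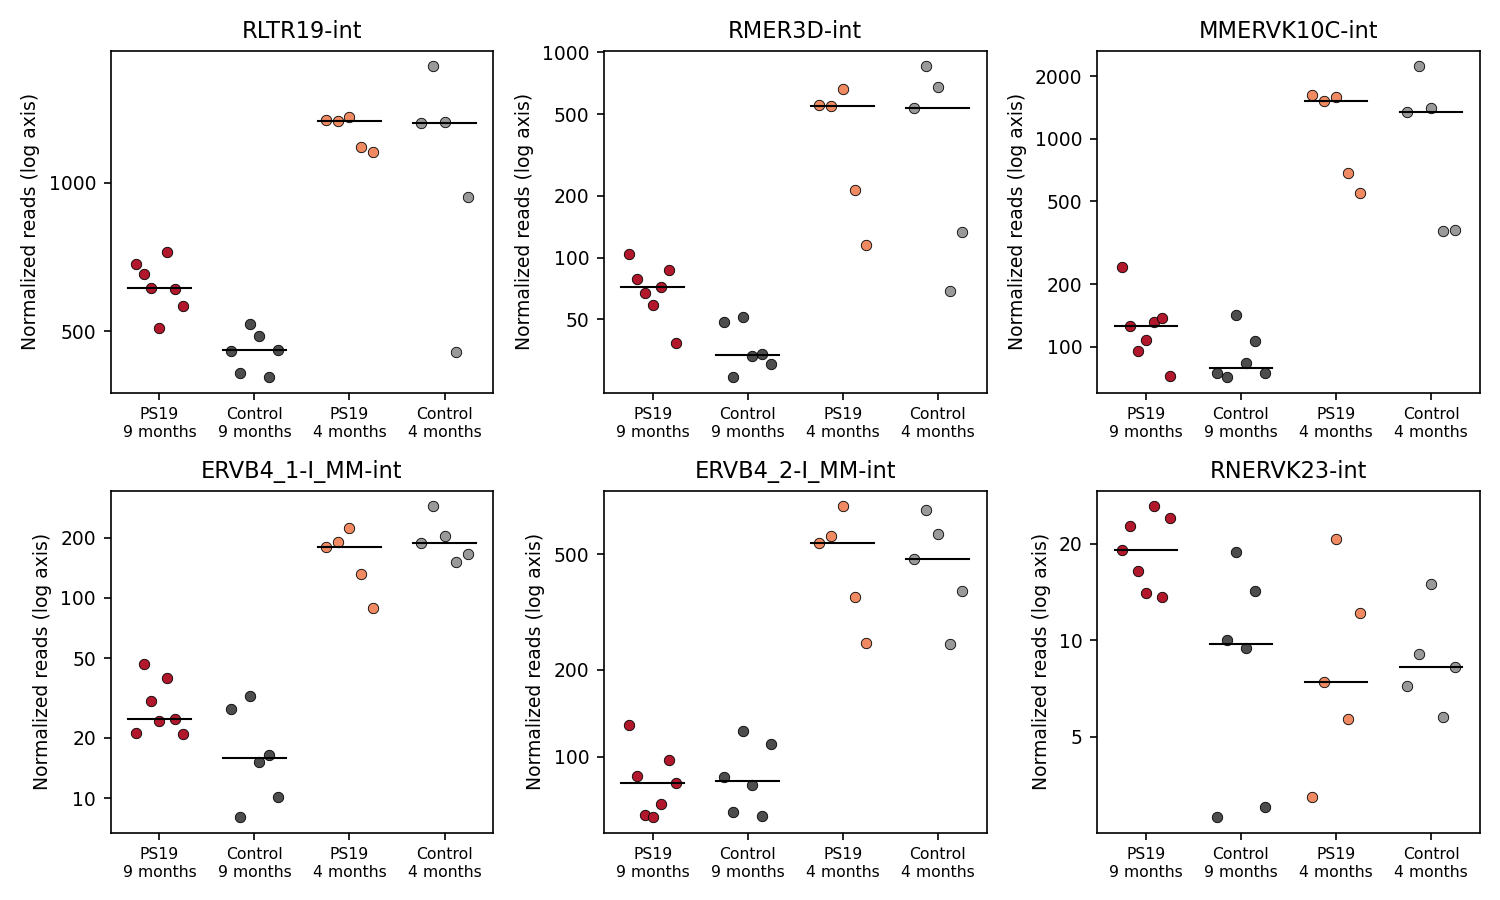
Normalized reads on log axes of 6 ERVK internal parts in each of the 23 samples, with each point 1 sample and each line the median of its group. RLTR19-int and RMER3D-int stand higher in PS19 than in control samples at 9 months with 6 of 7 PS19 samples above every control. All 4-month samples stand above all 9-month samples for MMERVK10C-int, ERVB4_1-I_MM-int and ERVB4_2-I_MM-int. For RLTR19-int and RMER3D-int, control replicate 4 at 4 months lies among the 9-month samples, at 453 and 69.0. For RNERVK23-int the ages overlap widely.

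The other members of high fold change at 9 months missed the threshold. RNERVK23-int had 13.7 normalized reads in the lowest PS19 sample, 19.2 at the median and 26.3 in the highest, against 2.80, 9.76 and 18.9 in control samples. The highest 4 of the 7 PS19 samples exceeded all controls. At 1.15 on the log2 scale its fold change was the highest of the 29, with a standard error of 0.38 and an adjusted p of 0.101 (limma). It rests on 3 to 31 reads per sample, so its values carry a large counting error.

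The tested ERVB subfamilies ran from -0.06 to 0.76 on the log2 scale. ERVB4_1-I_MM-int had 20.8, 24.9 and 46.7 normalized reads in the lowest, median and highest PS19 samples at 9 months, against 8.03, 15.8 and 32.5 in control samples. The groups overlapped, and the log2 fold change was 0.76 with a standard error of 0.32 (adjusted p = 0.203, limma). ERVB2_1A-I_MM-int had 31.4, 51.2 and 53.5 normalized reads in PS19 samples, against 13.05, 26.9 and 43.0 in control samples, with a log2 fold change of 0.72 and an adjusted p of 0.146 (limma). ERVB4_2-I_MM-int had 61.7, 81.1 and 129 normalized reads in PS19 samples, against 62.5, 82.3 and 123 in control samples. Its ranges nearly coincided, with a log2 fold change of -0.06. Its 95% interval of -0.48 to 0.35 bounds the difference that these samples allow. ERVB4_1B-I_MM-int lay at 0.32 and ERVB5_1-I_MM-int at -0.05 on the log2 scale, neither past the threshold.

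MMERVK10C-int had 72.4 normalized reads in the lowest PS19 sample at 9 months, 125 at the median and 241 in the highest. In control samples at 9 months it had 71.3, 79.0 and 143. The groups overlapped over most of their range, and PS19 replicate 1 alone stood above every control. On the log2 scale the fold change was 0.45 with a 95% interval of -0.00 to 0.91 (adjusted p = 0.279, limma). MMERVK9E_I-int had a log2 fold change of 0.54 (adjusted p = 0.180, limma), and MMERVK9C_I-int one of -0.01 with an interval of -0.26 to 0.25. MurERV4-int, at 957 normalized reads in the median PS19 sample and 983 in the median control sample, had a log2 fold change of -0.05 with an interval of -0.29 to 0.19. RMER17A-int was lowest of the 29 at -0.07, with 6.28 to 21.6 normalized reads in PS19 samples and 7.02 to 23.1 in control samples.

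Other members of high mean had ranges that overlapped between the genotypes at 9 months. MYSERV6-int had 158 to 409.7 normalized reads in PS19 samples, with a median of 229, against 188 to 341 in control samples, with a median of 226. Its log2 fold change was 0.00 with an interval of -0.36 to 0.37. RLTR42-int had 207 to 359 normalized reads in PS19 samples, with a median of 264, against 194 to 332 in control samples, with a median of 254. RLTR44-int had 244 to 401 normalized reads in PS19 samples, with a median of 329, against 262 to 330.5 in control samples, with a median of 291. Neither RLTR member was called, with log2 fold changes of 0.06 for RLTR42-int and 0.16 for RLTR44-int.

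Over the 29 tested members the median log2 fold change at 9 months was 0.32, beside 0.19 over all tested subfamilies. Of the members, 23 had a positive fold change, which is 79.3% of them, beside 75.0% of all tested subfamilies. The 6 below 0 were ERVB4_2-I_MM-int, ERVB5_1-I_MM-int, MMERVK9C_I-int, MurERV4-int, RMER17A-int and RMER17C-int. Under TMM scaling the median of the members was 0.16 and that of all tested subfamilies 0.03. By name, the median was 0.40 for 6 tested ERVB, 0.36 for 4 MMERVK, 0.40 for 3 MYSERV, 0.20 for 5 RLTR and 0.39 for 5 RMER subfamilies. No member had every PS19 sample above every control, beside 0.978% of all tested subfamilies.

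The other internal parts of retroviruses in the table had medians of similar size. IAP and ETn internal parts had a median log2 fold change of 0.47, with 1 of 12 called higher. Internal parts of the ERV1, ERVL and MaLR families had a median of 0.35, with 6 of 69 called higher. None of either list was called lower, and under TMM scaling 0 of 12 and 4 of 69 were called higher. The difference between these lists and the members was not tested. Of the summed signal of all ERVK internal parts, the members made up 17.9% ± 5.02 in PS19 samples at 9 months (SD, n = 7) and 22.7% ± 3.41 in control samples (SD, n = 6).

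**Figure D3:**
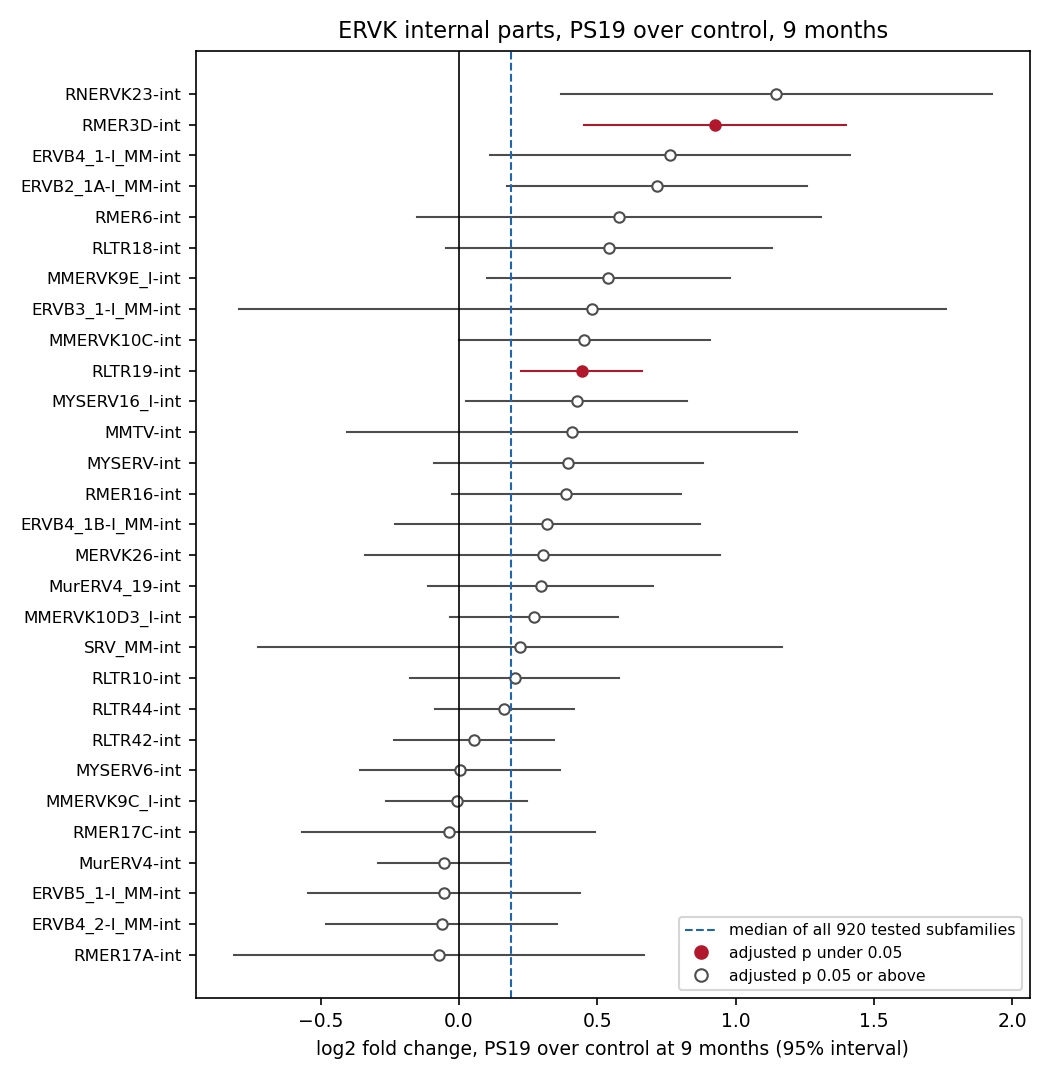
Log2 fold change of PS19 over control at 9 months for the 29 tested ERVK internal parts, as points with 95% intervals, filled where the adjusted p was under 0.05. RLTR19-int and RMER3D-int are filled, most points lie above 0, and the dashed line marks the median of all tested subfamilies at 0.19.

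LTRs flank the internal part in a provirus, so the LTR subfamilies that share a stem with a member were described beside it. There were 65 of them, including RLTR10 and RLTR9 subfamilies for the MMERVK members, and 51 passed the filter. At 9 months 1 of 51 rose and 1 fell, with a median log2 fold change of 0.18. Under TMM scaling 0 rose and 2 fell. The LTR that rose was RLTR19, the LTR of RLTR19-int. It had 57.3 normalized reads in the lowest PS19 sample, 71.8 at the median and 120 in the highest, against 27.5, 45.6 and 50.4 in control samples. PS19 and control samples did not overlap, and the log2 fold change was 0.80 with a standard error of 0.21 (adjusted p = 0.0331, limma). RLTR19 and RLTR19-int share their stem and can share reads of the same copies, so they are not independent measurements. The related LTRs did not move together. RLTR19C had a log2 fold change of 0.73, RLTR19A one of -0.18 and RLTR19B one of -0.11, none past the threshold.

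The LTR that fell was RMER17C2, with 750 to 1239 normalized reads in PS19 samples and 1254 to 1527 in control samples at 9 months, which did not overlap. Its log2 fold change was -0.51 with a standard error of 0.11 (adjusted p = 0.0144, limma). RMER17C-int itself had 36.9 to 95.7 normalized reads in PS19 samples and 40.6 to 91.3 in control samples, with a log2 fold change of -0.04. The LTR RMER17C had a log2 fold change of 0.18 and was not called. None of the 9 tested RLTR10 LTRs and none of the 11 tested RLTR9 LTRs was called. The LTRs named with RMER3D did not pass the filter.

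Some libraries stood apart for many members at once. Among controls at 9 months, replicate 3 was the highest sample for 24 of 29 members, and its summed signal of 4967 compared with 3166 to 3838 in the other controls. PS19 replicates 1 and 2 were each the highest PS19 sample for 10 members, and PS19 replicate 4 was the lowest for 15. Control replicate 5 was the lowest control for 14. These libraries also stood at the ends of their groups in total repeat signal. Control replicate 3 had the highest control total at 462762 normalized repeat reads, and control replicate 5 the lowest at 370990. PS19 replicates 1 and 2 had the highest PS19 totals at 539759 and 467091, and PS19 replicate 4 the lowest at 394920. Without control replicate 3 the fit called 5 members, all higher in PS19, while calls over the whole table also increased, to 8.48% of all tested subfamilies in either direction. These were RLTR19-int, RMER3D-int, ERVB2_1A-I_MM-int, RNERVK23-int and MMERVK9E_I-int. Without control replicate 3 and PS19 replicate 1 together, a setting chosen after seeing the data, it called 3, namely RLTR19-int, RMER3D-int and RNERVK23-int, beside 5.33% of all tested subfamilies. Without PS19 replicate 5 or 6, or without control replicate 2, 4, 5 or 6, none was called. In those fits 7 to 14 of all 920 tested subfamilies were called. Without control replicate 1 RMER3D-int alone was called, beside 13 of all 920 tested subfamilies. Without PS19 replicate 1 or 2 RLTR19-int alone was called, beside 19 and 18 of all 920.

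At 4 months no member differed between PS19 and control spinal cord. None of 29 was called by limma, and none had an unadjusted p under 0.05. edgeR and DESeq2 on the recovered reads also called none. Of all tested subfamilies 0% were called. The median log2 fold change was 0.04 over the members, beside -0.08 over all tested subfamilies. Of the members, 17 were above 0, and the range was -0.50 to 0.46. The intervals of this fit were wide, and differences of the size seen at 9 months were not detectable in it.

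RLTR19-int had 1339.5, 1335, 1358, 1181 and 1154 normalized reads in PS19 replicates 1 to 5 at 4 months. In control replicates 1 to 5 it had 1320.4, 1722, 1329, 453 and 937. The PS19 samples lay close together, and the controls extended both above and below them. The log2 fold change was 0.27 with a 95% interval of -0.72 to 1.26. RMER3D-int had 556, 546, 660.3, 214 and 115 normalized reads in PS19 replicates 1 to 5, against 536, 854, 676, 69.0 and 133 in control replicates 1 to 5. In both genotypes the first 3 replicates were far above the last 2. The log2 fold change was 0.16 with an interval of -1.42 to 1.73. With a term for the sets its standard error was 0.27, and under TMM scaling it was 0.24 with a standard error of 0.19, without a call in either.

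The median over the members differed in sign between the 2 sets of 4-month samples. Within replicates 1 to 3 the median log2 fold change of PS19 over control was -0.17 over the members and -0.27 over all tested subfamilies. Within replicates 4 and 5 it was 0.36 over the members and 0.22 over all tested subfamilies. Of the 29 members, 17 lay below 0 in replicates 1 to 3 and above 0 in replicates 4 and 5, 11 lay below 0 in both sets, and 1 lay above 0 in replicates 1 to 3 and below 0 in replicates 4 and 5. With a term for the sets in the fit, none of the 29 members was called and none had an unadjusted p under 0.05. Of all 920 tested subfamilies, 5 had such a p in that fit. Control replicate 4 was the lowest control for 27 of 29 members, and PS19 replicate 5 the lowest PS19 sample for 26. Both also had the lowest total repeat signal of their groups, at 507549 normalized repeat reads in that control and 471178 in that PS19 sample. MMERVK10C-int had 1627, 1512 and 1595 normalized reads in PS19 replicates 1 to 3 and 681 and 550.2 in PS19 replicates 4 and 5. In controls it had 1343, 2229 and 1408 in replicates 1 to 3 and 360.4 and 362 in replicates 4 and 5. All 29 members were higher in replicates 1 to 3, by a median of 1.18 on the log2 scale, beside 1.93 over all tested subfamilies. Only 3 of 29 members exceeded that median of all tested subfamilies.

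The effect of PS19 was not shown to differ between the ages. In the fit of all samples, the difference between the PS19 effect at 9 months and that at 4 months was called for none of 29 members, and for 0% of all tested subfamilies. None of the members had an unadjusted p under 0.05 by limma, beside 8 of all 920 tested subfamilies, and edgeR and DESeq2 called none. The median of this difference was 0.28 over the members, beside 0.27 over all tested subfamilies. For RLTR19-int it was 0.17 with a 95% interval of -0.66 to 1.003, and for RMER3D-int 0.77 with an interval of -0.71 to 2.25.

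Between the ages nearly all members were lower at 9 than at 4 months in the values as deposited. In PS19 samples 24 of 29 members fell and 1 rose, and in control samples 26 fell and none rose (limma). This largely followed the whole table, since 77% of all tested subfamilies fell in PS19 samples and 79.3% in control samples. In each genotype 6.09% of all tested subfamilies rose. The median log2 fold change of 9 over 4 months was -2.12 in PS19 and -2.37 in controls over the members, beside -1.83 in PS19 and -2.14 in controls over all tested subfamilies. Of the members, 24 fell in both genotypes, a count that was not made over all tested subfamilies. Every 9-month sample lay below every 4-month sample for 11 members. That is 11 of 29, beside 27.1% of all tested subfamilies. Age coincides with any difference in preparation, sequencing or counting between the 9-month and 4-month samples, and these cannot be told apart.

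MMERVK10C-int had 72.4 to 241 normalized reads in PS19 samples at 9 months, against 550.2 to 1627 in PS19 samples at 4 months. In controls it had 71.3 to 143 at 9 months, against 360.4 to 2229 at 4 months. No 9-month sample reached any 4-month sample. The log2 fold change of 9 over 4 months was -3.13 in PS19 (SE 0.42, adjusted p = 1.7e-06, limma) and -3.30 in controls (SE 0.43, adjusted p = 5.6e-07). RLTR10-int fell as well, with log2 fold changes of -2.76 in PS19 and -3.19 in controls. It had 81.3 to 187 normalized reads in PS19 samples at 9 months, against 363 to 1601 in PS19 samples at 4 months. In controls it had 98.7 to 151 at 9 months, against 454 to 2003 at 4 months.

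RMER17C-int fell with log2 fold changes of -2.98 in PS19 and -2.92 in controls, and ERVB4_1B-I_MM-int with -2.79 in PS19 and -3.07 in controls. ERVB4_1-I_MM-int fell with -2.40 in PS19 and -3.49 in controls, the lowest log2 fold change of the 29 in controls. ERVB3_1-I_MM-int fell with -2.49 in PS19 and -3.23 in controls, on few reads. It had 0 to 10 reads per sample at 9 months and 11 to 48 at 4 months. ERVB4_2-I_MM-int fell with -2.49 in PS19 and -2.40 in controls, and MYSERV6-int with -2.28 in PS19 and -2.37 in controls.

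At the other end, RNERVK23-int was the single member that rose in PS19 samples. It had 13.7 to 26.3 normalized reads in PS19 samples at 9 months, and 3.23, 7.43, 20.8, 5.67 and 12.2 in PS19 replicates 1 to 5 at 4 months. The groups overlapped, the log2 fold change was 1.11 and the adjusted p was 0.0451 (limma), and neither edgeR nor DESeq2 called it. In controls its log2 fold change was -0.09. MMERVK9C_I-int and MMTV-int were not called in either genotype. The log2 fold change of MMERVK9C_I-int was -0.54 in PS19 and -0.37 in controls, and that of MMTV-int was -0.61 in PS19 and -0.56 in controls. MMERVK10D3_I-int and RLTR44-int fell in controls, with log2 fold changes of -1.01 and -1.03, and were not called in PS19. MurERV4-int fell with -0.77 in PS19 and -0.97 in controls.

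With scaling within the repeats, some members fell and some rose relative to the other repeats between the ages, and others were called neither way. TMM brought the median log2 fold change of all tested subfamilies to -0.05 in PS19 and -0.09 in controls. Under it 9 members fell and 6 rose in PS19, and 8 fell and 9 rose in controls. In the background, 27.9% of all tested subfamilies fell in PS19 and 29.7% in controls under TMM, while 32.3% rose in PS19 and 32.7% in controls. The share of members that rose, 6 of 29 in PS19 and 9 of 29 in controls, was thus not above that of the whole table. Calls in both genotypes together were counted for the members only, so no share of the whole table stands beside them. The 6 members that fell in both genotypes under TMM were MMERVK10C-int, RLTR10-int, RLTR18-int, RMER17C-int, RMER3D-int and ERVB4_1B-I_MM-int, and all 6 had fallen in both genotypes as deposited. MMERVK10C-int had the largest of these log2 fold changes, at -1.33 in PS19 and -1.22 in controls.

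The 6 members that rose in both genotypes under TMM were MMERVK9C_I-int, MMERVK10D3_I-int, MurERV4-int, RLTR19-int, RLTR44-int and RNERVK23-int. Of these, MurERV4-int and RLTR19-int had fallen in both genotypes as deposited, so their direction over age turned with the scaling. RLTR19-int had a log2 fold change of -1.04 in PS19 and -1.21 in controls as deposited, and of 0.77 in PS19 and 0.88 in controls under TMM. The MMERVK subfamilies thus lay on both sides, MMERVK10C-int among those that fell and MMERVK9C_I-int and MMERVK10D3_I-int among those that rose relative to the other repeats.

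**Figure D4:**
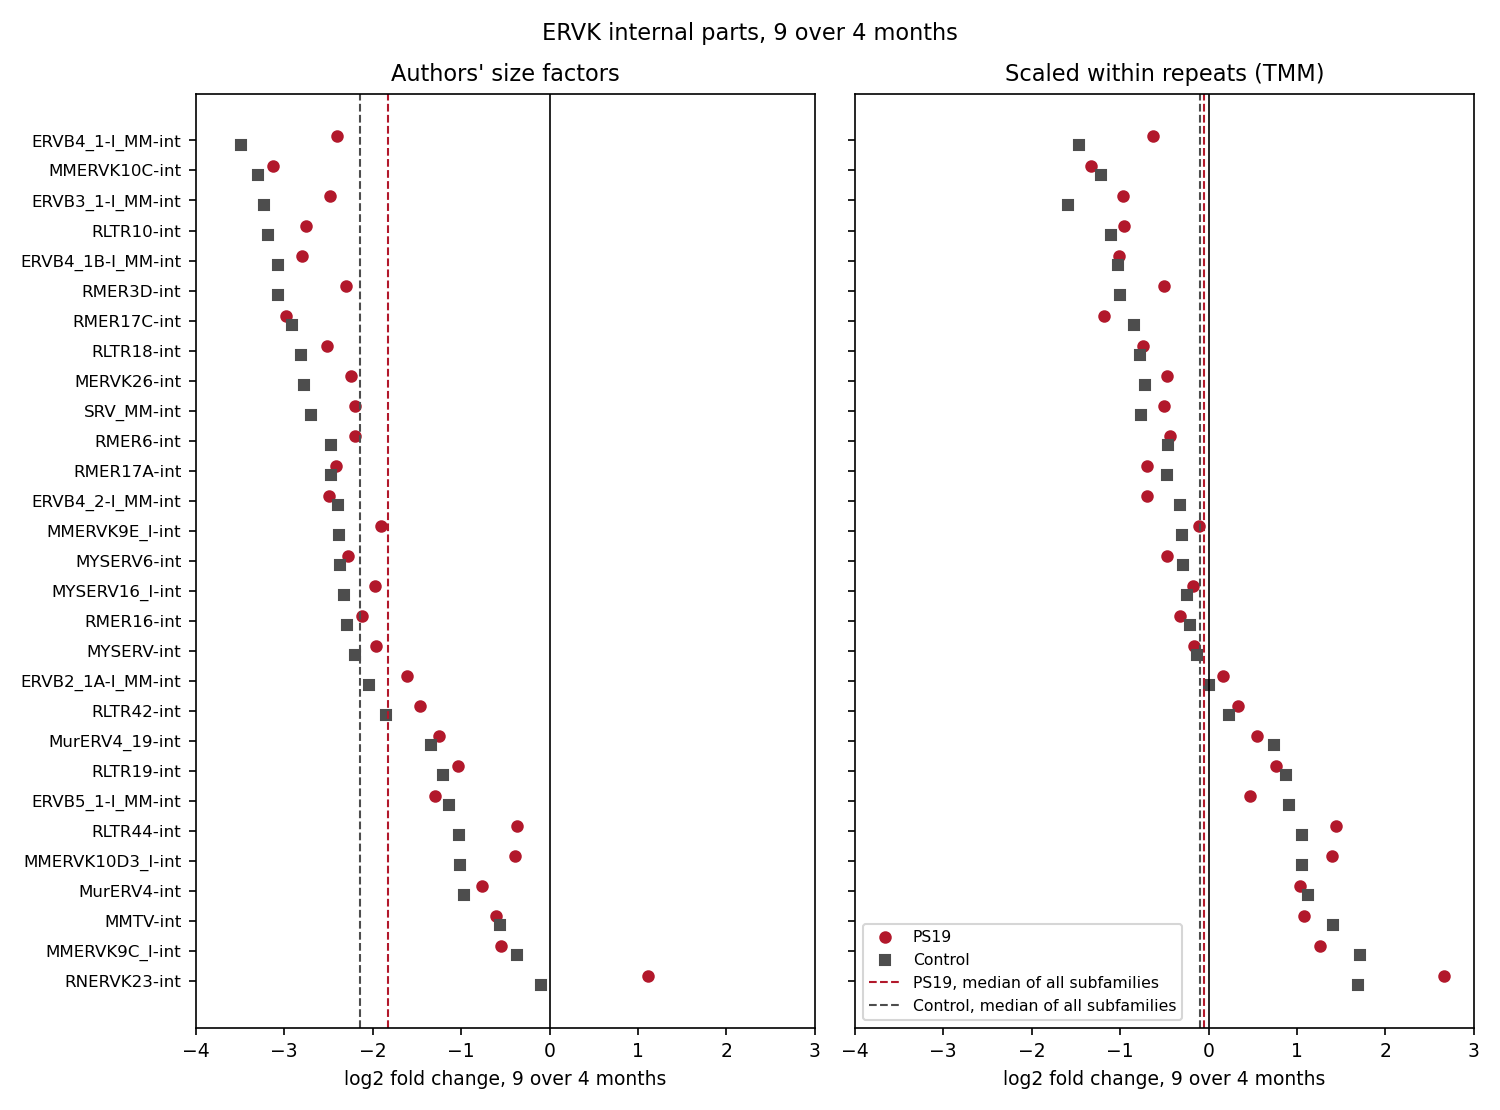
Log2 fold change of 9 over 4 months for the 29 tested ERVK internal parts in PS19 (circles) and control samples (squares), with the authors' size factors (left) and with TMM scaling within the repeats (right), and dashed lines at the medians of all tested subfamilies. Nearly all points lie below 0 on the left, and the same order of members straddles 0 on the right, with MMERVK10C-int at -1.33 in PS19 and -1.22 in controls and MMERVK9C_I-int at 1.26 in PS19 and 1.71 in controls.

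The counts over age also moved with the sets of 4-month samples, for the members and for the whole table. Against 4-month replicates 4 and 5 alone, 21 members were called lower in PS19. In controls 22 were called lower and 1 higher. The higher one was MMERVK9C_I-int, which had 233 to 308 normalized reads in control samples at 9 months, against 148 and 175 in control replicates 4 and 5 at 4 months. In these fits 64.2% of all tested subfamilies were called in PS19 and 66.5% in controls. Against replicates 1 to 3 alone, 27 fell and 1 rose in PS19, and 28 fell in controls, beside 94.1% of all tested subfamilies called in PS19 and 96.3% in controls.

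Over age, several LTRs moved the other way from the internal part that shares their stem. ERVB4_1B-LTR_MM had 261 to 355 normalized reads in PS19 samples at 9 months, against 32.5 to 113 in PS19 samples at 4 months. In controls it had 321 to 398 at 9 months, against 25.9 to 167 at 4 months. All 9-month samples lay above all 4-month samples, the reverse of ERVB4_1B-I_MM-int. Its log2 fold change of 9 over 4 months was 2.11 in PS19 (SE 0.39, adjusted p = 3.8e-05, limma) and 2.29 in controls (SE 0.40, adjusted p = 1.3e-05). The other LTR of that stem, ERVB4_1C-LTR_Mm, fell with log2 fold changes of -3.03 in PS19 and -2.72 in controls.

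RMER17C2 rose by 1.10 in PS19 and by 1.61 in controls on the log2 scale, while RMER17C fell with -2.23 in PS19 and -2.61 in controls, as RMER17C-int did. RMER6D rose by 2.75 in PS19 and by 2.66 in controls, and RMER6C by 2.24 in PS19 and by 2.26 in controls. RMER6-int fell with -2.20 in PS19 and -2.48 in controls. RLTR44C rose as well, by 1.21 in PS19 and by 0.73 in controls. Of the 51 tested LTRs, 39 fell and 5 rose in PS19 samples, and 39 fell and 5 rose in control samples. Under TMM 11 fell and 16 rose in PS19 samples, and 10 fell and 14 rose in control samples. RLTR10, listed here with RLTR10-int and MMERVK10C-int, fell with -2.61 in PS19 and -3.05 in controls. The difference between an LTR and its internal part was not tested, and whether reads on either came from proviral transcripts or from other RNA that holds the sequence was not tested.

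**Figure D5:**
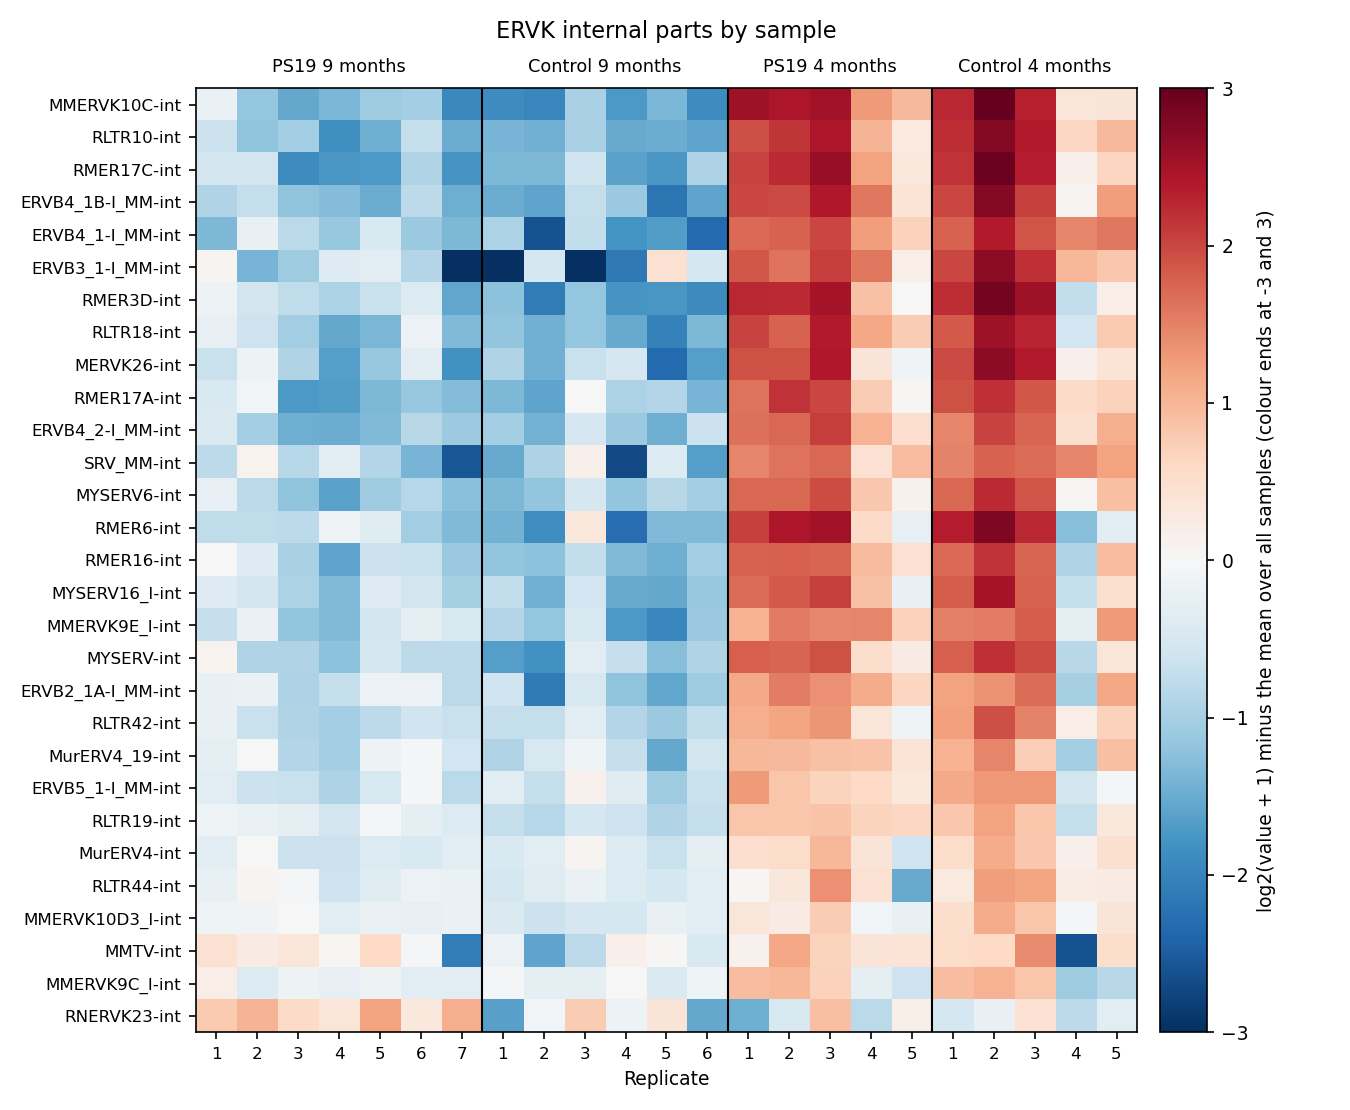
Log2(value + 1) of each of the 29 tested ERVK internal parts in each of the 23 samples, as the difference from its mean over all samples, with the colour ending at -3 and 3. Replicates 1 to 3 of both genotypes at 4 months are darkest red for most members, replicates 4 and 5 lie between them and the 9-month samples, and RNERVK23-int has its highest group mean in PS19 samples at 9 months.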

How the data were processed

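Poly(A)-selected RNA libraries of 23 spinal cord samples were analysed. The deposited values are a signal per repeat subfamily, made by the authors as reads scaled with 1 size factor per sample. Per the submitters' processing notes, the tools were Trimmomatic, STAR and DESeq2 with build mm10, versions not stated. The counting program for repeats, its annotation and its handling of multiply mapping reads were not given in the sources used here, and near-identical subfamilies could split reads.

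Each column held whole multiples of the value of 1 read, with 100 percent of values within 0.1 percent of a whole read, which gave the reads. For 2 samples that step was near 1, so their reads lay close to their values without being equal to them. In control replicate 2 at 9 months, MurERV4-int had 1003 reads and 1006.54 normalized reads. No sample duplicated another of its group, with a chi-square per degree of freedom of at least 3.80 for each pair.

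limma 3.58.1 (R 4.3.3, empirical Bayes with a variance trend) was run on log2(value + 1). The samples of 1 age alone entered each comparison of PS19 with control, and all 23 samples the comparisons of age and the interaction. Fold changes are on this scale, which understates changes of low subfamilies. Subfamilies with a mean of at least 10 were tested (920, with 215 removed), with Benjamini-Hochberg adjustment over all of them and a threshold of 0.05. Simulated reads with known changes were used as a check. This check is not taken to cover the fits that hold 4-month samples. The sets of those samples differed by a median of 1.93 on the log2 scale over all tested subfamilies. Alternatives were pseudocounts of 0.5 and 5, no filter or one at 50, TMM and median-ratio scaling within the repeats, a threshold of 0.01, count models on the reads so recovered (DESeq2 1.42.0 and edgeR 4.0.16), subsets of samples and leaving out each sample.

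Members and lists were chosen with earlier results of these data known. Values were given for MMERVK10C-int, the ERVB4 subfamilies and RLTR19-int, the 8 members of highest mean, members past the threshold between genotypes or for the interaction, and the 4 highest and 4 lowest by fold change at 9 months and for each age comparison. Other members named with values were chosen after their values were seen.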

Additional observations from a re-analysis of the deposited data

Results flagged for a closer look

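Each named member and the summed signal were examined in each group for a sample that stood far from the others of its group (Dixon's test at the 95% level). This flagged 5 of 96 groups, and chance alone flags about 1 in 20. MMERVK10C-int had 241.44 normalized reads in PS19 replicate 1 at 9 months, against 72.4 to 138 in the other PS19 samples. MMERVK9C_I-int had 360.33 in the same sample, against 234 to 282 in the other PS19 samples. In control replicate 3 at 9 months, RLTR10-int had 151.08 normalized reads, against 98.7 to 112 in the other controls. RMER17A-int had 23.08 in that control, against 7.02 to 12.1 in the others, and the summed signal of the members was 4966.7, against 3166 to 3838.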

How the results depend on the processing

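At 9 months 2 members were called between PS19 and control. The count was 1 with no filter, 1 under TMM, 1 under median-ratio scaling, 0 at a threshold of 0.01, 0 in the fit of all 23 samples and 0 with PS19 replicates 6 and 7 only, whose sample numbers run with those of the controls, and 0 to 5 with each sample left out in turn. It was 2 with either pseudocount, a filter at 50, edgeR or DESeq2, and in each of these the same 2 members. Calls over the whole table moved as well, from 31 of 920 subfamilies in the main fit. They were 8 of 1135 with no filter, 17 under TMM, 16 under median-ratio scaling and 6 at a threshold of 0.01. The fit of all 23 samples called 1, PS19 replicates 6 and 7 only gave 6, edgeR 24 and DESeq2 45. With each sample left out, 7 to 78 were called. At 4 months and for the interaction the count of members was 0 in every alternative run. Of 9 over 4 months, 25 members were called in PS19 and 26 in controls, against 15 in PS19 and 17 in controls under TMM. The whole table moved as well, with 764 of 920 subfamilies called in PS19 in the main fit and 554 under TMM. In controls 730 of 920 fell and 56 rose in the main fit, against 273 and 301 under TMM. The other alternatives gave member counts within 1.5 times of those of the main fit. When each sample was left out, 24 to 27 members were called in PS19 and 26 to 27 in controls. In those leave-one-out fits 706 to 790 of all 920 tested subfamilies were called in PS19 and 749 to 819 in controls.

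The direction over age reversed for some members under scaling within the repeats, since both scalings remove the change of the median subfamily. Under TMM 6 members stayed called lower in both genotypes, a count made for the members only. As log2 fold changes, TMM in PS19 gave RLTR19-int 0.77, MurERV4-int 1.04, RLTR42-int 0.34, RLTR44-int 1.44, ERVB5_1-I_MM-int 0.47, ERVB2_1A-I_MM-int 0.17, MMERVK9C_I-int 1.26 and MMERVK10D3_I-int 1.40. TMM in controls gave RLTR19-int 0.88, MurERV4-int 1.12, RLTR42-int 0.23, RLTR44-int 1.06, ERVB5_1-I_MM-int 0.91, ERVB2_1A-I_MM-int 0.0022, MMERVK9C_I-int 1.71, MMERVK10D3_I-int 1.05, RNERVK23-int 1.69 and MMTV-int 1.41. Median-ratio scaling in PS19 gave RLTR19-int 0.63, MurERV4-int 0.90, RLTR42-int 0.20, RLTR44-int 1.30, ERVB5_1-I_MM-int 0.34, ERVB2_1A-I_MM-int 0.032, MMERVK9C_I-int 1.12 and MMERVK10D3_I-int 1.27. In controls it gave RLTR19-int 0.73, MurERV4-int 0.98, RLTR42-int 0.089, RLTR44-int 0.91, ERVB5_1-I_MM-int 0.77, MMERVK9C_I-int 1.57, MMERVK10D3_I-int 0.91, RNERVK23-int 1.58 and MMTV-int 1.28. Against 4-month control replicates 4 and 5 only, MMERVK9C_I-int reversed to 0.76. Further changes of sign were MMTV-int at 1.08 in PS19 and MurERV4_19-int at 0.55 in PS19 and 0.74 in controls under TMM. Against replicates 4 and 5 only, they were RLTR44-int at 0.31 and MMERVK9C_I-int at 0.25 in PS19, and MMTV-int at 0.59 and RNERVK23-int at 0.19 in controls. No paired analysis was possible because the labels give no replicate numbers, and the numbers used here only name samples.

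Members with few reads, such as RNERVK23-int, ERVB3_1-I_MM-int and MMTV-int, are limited by counting error. The spread between the sets of 4-month samples limits both the comparison at 4 months and the interaction.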
